A study of Arabidopsis thaliana with 48 samples.

Results

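The miR399 guides and miR827 are the microRNAs (miRNAs) through which Arabidopsis thaliana adjusts its phosphate uptake and transport, and their reads were followed through 12 small RNA libraries from closed flower buds. The members were the 6 miR399 guide strands (miR399a, miR399b, miR399c-3p, miR399d, miR399e and miR399f) and miR827, taken by name from the tables of 21 nt reads. They were 7 of the 428 annotated miRNAs in those tables. Because miR399b and miR399c-3p have the same sequence, their values were added and are given as miR399b/c-3p, which leaves 6 distinct sequences.

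The buds came from plants of 3 genotypes: the mutants atprmt5-2 and atprmt5-6, and the wild type Col0 as their reference. Both mutants carry an allele of PRMT5, an enzyme that places symmetric methyl marks on arginines of proteins; the lesions are not described in the sources used here. All plants grew on soil under long days without a treatment, their age is not given, and no phosphate level of the soil is stated. From each genotype small RNAs were sequenced from an anti-AGO1 immunoprecipitate (AGO1-IP) and from the total extract, 2 libraries each. The study asked how the mutations affect small RNA accumulation and the loading of small RNAs into AGO1. The libraries are described as biological duplicates, and the total extracts were a fraction of the input of the immunoprecipitations, so AGO1-IP and total libraries of a genotype may share material.

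Phosphate guides act on proteins that limit phosphate transport. When phosphate is scarce, miR399 accumulates, moves through the phloem and represses PHO2, a ubiquitin-conjugating enzyme that leads to the removal of phosphate transporters and of the exporter PHO1. miR827 represses NLA, a RING-type ubiquitin ligase of the same transporters. The RNA IPS1 binds miR399 at a site with an unpaired bulge and so sequesters it without being cut. None of these transcripts was measured in the tables.

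The mature sequences, read from RefSeq TAIR10.1, are given because the reads are assigned by them, with the seed (bases 2 to 8) in capitals.
miR399a: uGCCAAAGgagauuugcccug
miR399b and miR399c-3p: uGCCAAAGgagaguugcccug
miR399d: uGCCAAAGgagauuugccccg
miR399e: uGCCAAAGgagauuugccucg
miR399f: uGCCAAAGgagauuugcccgg
miR827: uUAGAUGAccaucaacaaacu

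All 6 miR399 guides share the seed GCCAAAG, and no other annotated mature miRNA in the tables has it. The seed UAGAUGA belongs to miR827 alone. Counted from the 5′ end and relative to miR399b, miR399a differs by G13U, miR399d by G13U and U20C, miR399e by G13U, C19U and U20C, and miR399f by G13U and U20G. The guides therefore differ from one another by 1 to 3 bases outside the seed, and the number of mismatches that the authors allowed when they assigned reads is not given in the sources used here. All 7 members start with U, the 5′ base that AGO1 is known to prefer. The miR399 guides have a GC content of 52.4% to 57.1%, against 33.3% for miR827.

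In TAIR10.1, MIR399a lies on chromosome 1 (AT1G29265, mature strand at chr1:10227165-10227185, plus strand), as does MIR399b (AT1G63005, chr1:23345387-23345407, minus strand). MIR399c is on chromosome 5 (AT5G62162, chr5:24962568-24962588, plus strand). MIR399d, MIR399e and MIR399f stand close together on chromosome 2 (AT2G34202, AT2G34204 and AT2G34208), with mature strands at chr2:14442988-14443008 on the minus strand and at chr2:14443582-14443602 and chr2:14445084-14445104 on the plus strand. MIR827 is on chromosome 3 (AT3G59884, chr3:22122811-22122831, minus strand). Each mature strand lies in its miRNA gene, and none overlaps another annotated gene.

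The sites that these guides are known for show what the base that separates the abundant miR399 sequences faces. In the PHO2 transcript (AT2G33770, minus strand of chromosome 2), a search for complementary sites with a penalty of at most 4 (1 for a mismatch, 0.5 for a G:U pair) found 5 sites in the 5′ UTR. Here they are 5′ to 3′, with the match to the miR399 seed in capitals, together with the NLA site (AT1G02860, chr1:635401-635421, plus strand, 5′ UTR) and the IPS1 site (AT3G09922, chr3:3051224-3051247, plus strand).
PHO2 chr2:14282106-14282126: uagggcaaaucuuCUUUGGCa
PHO2 chr2:14281973-14281993: uagggcauaucucCUUUGGCa
PHO2 chr2:14281884-14281904: uugggcaaaucucCUUUGGCa
PHO2 chr2:14281827-14281847: ucgagcaaaucucCUUUGGCa
PHO2 chr2:14281770-14281790: uagagcaaaucucCUUUGGCa
NLA, for miR827: uguuuguugauggUCAUCUAa
IPS1, with 3 unpaired bases after guide position 10: uugggcaacuucuaucCUUUGGCa

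Each of these sites pairs with all 7 seed bases. At guide position 13, miR399a pairs with all 5 PHO2 sites and miR399b with none of them, so that miR399a forms 18 or 19 Watson-Crick pairs and miR399b 17 or 18. In the IPS1 site the order is turned round: miR399b pairs at position 13 and forms 18 pairs, whereas miR399a does not and forms 17. The NLA site forms 20 pairs with miR827. These matches describe letters only and are no measure of binding or cleavage.

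Annotated miRNAs took 70.5% to 74.8% of the 21 nt reads in AGO1-IP and 23.0% to 32.9% in total small RNA. Depth was 3750509 to 8166912 reads of 21 nt per AGO1-IP library and 571191 to 1397552 per total library, with wild-type total replicate 1 the shallowest. Values are reads scaled by the number of 21 nt reads of the library (RPM), so 1 read was worth 1.75 RPM in that library at most and 3 reads, the floor used here, 5.25 RPM. The mutated gene was not measured, since the tables hold miRNAs only. For the labels of the fractions, miR390a-5p, a guide that AGO7 is known to bind, was lower in AGO1-IP in every genotype (log2 difference -2.36 in atprmt5-2, -2.43 in atprmt5-6 and -3.70 in wild type). The passenger strand miR168a-3p was lower as well (log2 -5.35, -6.12 and -6.91, in the same order), and the guide miR165a-3p was higher (log2 1.73, 1.47 and 2.46). All 9 of these differences passed limma's test at an adjusted p under 0.05, with the largest adjusted p at 0.000832.

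The miR399b/c-3p sequence was the most abundant member in every library. In AGO1-IP it had 613 and 756 RPM in atprmt5-2, 601 and 871 RPM in atprmt5-6, and 637 and 649 RPM in wild type. In total small RNA it had 339 and 365 RPM in atprmt5-2, 340 and 303 RPM in atprmt5-6, and 420 and 376 RPM in wild type. Every AGO1-IP library lay above every total library, and within total small RNA both wild-type libraries lay above all 4 mutant libraries. How many other miRNAs separated in these ways was not counted. Over all 127 tested rows the median log2 difference from wild type in total was -0.44 in atprmt5-2 and -0.69 in atprmt5-6. That of AGO1-IP from total was 0.62 in atprmt5-2, 0.69 in atprmt5-6 and 0.23 in wild type. The group order in AGO1-IP, from the highest, was atprmt5-6 (736 ± 191 RPM), atprmt5-2 (684 ± 101 RPM) and wild type (643 ± 8.14 RPM; SD, n = 2 each), and the ranges of all 3 groups overlapped. In total small RNA the order, from the lowest, was atprmt5-6 (321 ± 26.0 RPM), atprmt5-2 (352 ± 18.2 RPM) and wild type (398 ± 31.6 RPM), and the ranges of the mutants overlapped with each other.

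miR399a was the second miR399 sequence. Its AGO1-IP values were 85.1 and 75.4 RPM in atprmt5-2, 75.7 and 112 RPM in atprmt5-6, and 84.7 and 76.9 RPM in wild type. Its total values were 45.9 and 39.9 RPM in atprmt5-2, 46.5 and 38.8 RPM in atprmt5-6, and 40.3 and 40.2 RPM in wild type. Again every AGO1-IP library was above every total library, a separation that was not counted over the other miRNAs. Within each fraction the genotypes overlapped, so their order was not set apart by more than the spread. That order was atprmt5-6, wild type and atprmt5-2 in AGO1-IP, and atprmt5-2, atprmt5-6 and wild type in total. The wild-type total value of 40.3 RPM rests on 23 reads, with an exact Poisson interval of 25.5 to 60.4 RPM at 95%, which covers counting error only.

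miR827, the guide of NLA, was lower than miR399b/c-3p and higher than miR399a in every library. In AGO1-IP it had 271 and 268 RPM in atprmt5-2, 217 and 235 RPM in atprmt5-6, and 333 and 204 RPM in wild type. In total small RNA it had 120 and 77.1 RPM in atprmt5-2, 88.7 and 80.6 RPM in atprmt5-6, and 203 and 84.2 RPM in wild type. The wild-type libraries were the ones that differed most: their total values were 203 RPM (Poisson interval 168 to 244) and 84.2 RPM (69.3 to 101), a gap wider than counting error. Group means were 270 ± 2.01, 226 ± 12.7 and 268 ± 91.0 RPM in AGO1-IP and 98.3 ± 30.0, 84.7 ± 5.74 and 144 ± 84.1 RPM in total small RNA (atprmt5-2, atprmt5-6 and wild type; SD, n = 2 each), and in each fraction the wild-type range included both mutant means.

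**Figure D1:**
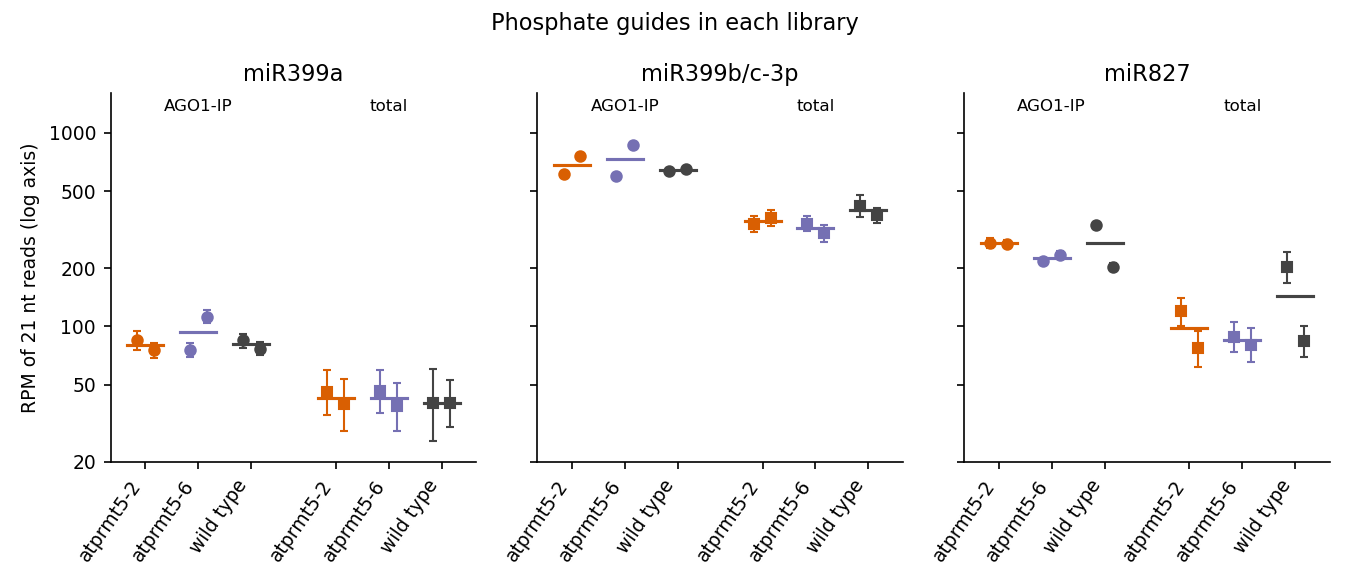
RPM of 21 nt reads on a log axis for miR399a, miR399b/c-3p and miR827 in each library, by fraction and genotype; points are libraries with 95% exact Poisson intervals, and lines are the means of 2 libraries. AGO1-IP points sit above the total points for miR399a (75.4 to 112 against 38.8 to 46.5 RPM) and miR399b/c-3p (601 to 871 against 303 to 420 RPM), whereas for miR827 the lowest AGO1-IP library (204 RPM) is next to the highest total library (203 RPM), both of wild type.

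The other 3 miR399 guides, all from the chromosome 2 loci, were hardly seen. miR399f had 35 reads over the 6 AGO1-IP libraries and 2 over the 6 total libraries, with 0.267 to 1.86 RPM per library in AGO1-IP and 0 to 0.792 RPM in total. miR399d had 4 reads in AGO1-IP, 2 in each of atprmt5-2 replicate 3 and atprmt5-6 replicate 3, and 0 of 6942398 reads in total, which allows up to 0.432 RPM over that fraction. miR399e had 1 read, in atprmt5-2 AGO1-IP replicate 3, and 0 in total. These 3 guides were below the filter of a mean of 5 RPM over the 12 libraries, so 4 of the 7 members and 3 of the 6 sequences were tested. The main test therefore left out the 3 rare guides, and no statement on a difference between genotypes or fractions is made for them.

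Within the family miR399b/c-3p held most of the reads in every library. miR399b/c-3p took 87.8% to 90.8% of the miR399 reads in AGO1-IP libraries and 87.9% to 91.3% in total libraries, and miR399a took 9.06% to 12.2% and 8.75% to 12%. Summed over genotypes, miR399a held 10.9% (exact binomial interval 10.5% to 11.2%) in AGO1-IP and 10.7% (9.61% to 12%) in total small RNA. The intervals of these sums treat all reads as independent and leave out the spread between libraries. In AGO1-IP the single libraries spread more widely than the interval of the sum. The lowest and highest shares in AGO1-IP, 9.06% and 12.2%, were both from atprmt5-2. Their binomial intervals, 8.32% to 9.84% and 11% to 13.5%, did not overlap. In that fraction the spread was thus as wide within a genotype as between genotypes. In total small RNA the shares were 8.75% and 9.65% in wild type and 9.87% to 12% in the mutants. The binomial intervals of these total libraries overlapped, and the difference was not tested. Of the reads of the identical copies, those listed under miR399b were 47.4% to 49.8% in AGO1-IP and 46.5% to 52.2% in total, so the split between the MIR399b and MIR399c loci cannot be read from the tables. Reads of miR399 outnumbered those of miR827 by 2.17 to 4.19 times in AGO1-IP and 2.27 to 5.25 times in total, with the lowest ratio of each fraction in wild-type replicate 1.

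**Figure D2:**
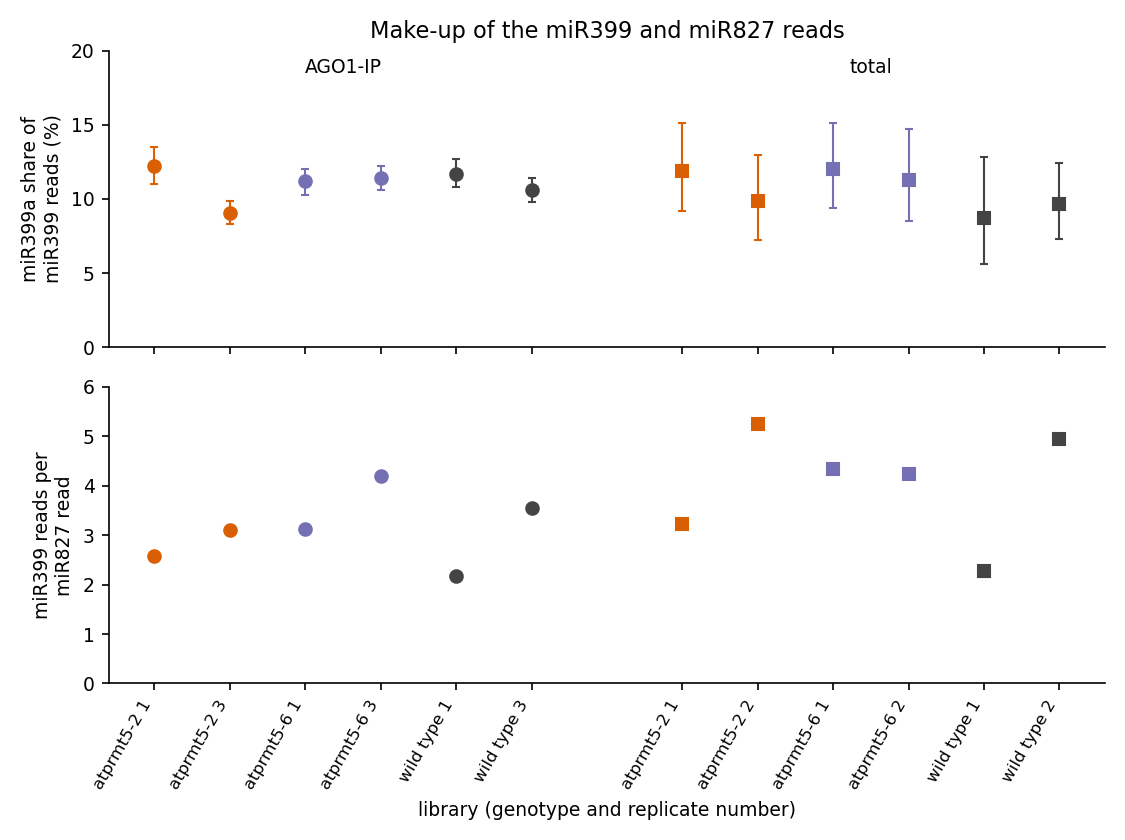
Upper panel, miR399a as a percentage of all miR399 reads in each library with exact 95% binomial intervals; lower panel, miR399 reads per miR827 read, both by fraction, genotype and replicate. The miR399a share stays between 8.75% and 12.2% in all 12 libraries, while the ratio runs from 2.17 to 5.25.

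As a part of all miRNA reads the guides were minor. miR399b/c-3p ranked 26th to 29th among the listed miRNAs of an AGO1-IP library and 31st to 39th in a total library, miR827 ranked 38th to 40th and 46th to 57th, and miR399a ranked 47th to 53rd and 59th to 73rd. All miR399 reads together made up 0.0923% to 0.137% of the miRNA reads in AGO1-IP and 0.117% to 0.182% in total small RNA. miR827 made up 0.0273% to 0.0445% and 0.0281% to 0.0804%. In these shares, unlike in RPM, the AGO1-IP libraries were not above the total libraries.

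Accumulation in the mutants was compared first, in total small RNA, with limma on log2(RPM + 1) over the 127 miRNA rows that passed the filter. Apart from miR399b and miR399c-3p, names with identical sequences stayed separate rows. Shares, medians and ranks over all rows therefore count some sequences more than once. With all identical sequences summed, 98 rows were tested, and 4 were called higher and 21 lower in atprmt5-2 total. miR399a was close to its wild-type level in both mutants, with log2 differences of 0.09 ± 0.27 (SE) in atprmt5-2 and 0.08 ± 0.27 in atprmt5-6. miR399b/c-3p had log2 differences of -0.18 ± 0.25 and -0.31 ± 0.25, and miR827 of -0.44 ± 0.41 and -0.62 ± 0.41. None of the 3 tested sequences passed an adjusted p of 0.05 (Benjamini-Hochberg over all rows; limma adjusted p = 0.477 to 0.795 in atprmt5-2 and 0.249 to 0.829 in atprmt5-6), none reached an unadjusted p of 0.05 (0 of 3), and 0 were called by edgeR or DESeq2. Among all tested rows limma called 18.1% in atprmt5-2 and 20.5% in atprmt5-6. The 95% intervals ran from -0.73 to 0.38 and -0.86 to 0.25 for miR399b/c-3p and from -1.36 to 0.47 and -1.54 to 0.29 for miR827 (log2), so a fall of miR827 below its wild-type level by more than 2-fold was within them.

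Against the mean of wild type, the mean of both alleles gave log2 differences of 0.08 ± 0.23 for miR399a, -0.24 ± 0.21 for miR399b/c-3p and -0.53 ± 0.36 for miR827 (SE; limma adjusted p = 0.782, 0.388 and 0.248). Again 0 of 3 sequences were called, also at an unadjusted p under 0.05 and by edgeR and DESeq2, beside 29.9% of all tested rows. The alleles themselves were alike within error: atprmt5-2 minus atprmt5-6 was 0.01, 0.13 and 0.18 for the 3 sequences in the same order, with intervals of -0.59 to 0.61, -0.42 to 0.68 and -0.74 to 1.10. Limma, edgeR and DESeq2 called 0% of all tested rows between the alleles, where 6 rows had an unadjusted p under 0.05 by limma.

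Many tested miRNAs were lower in the mutants than in wild type on this scale; both miR399 sequences stood above the median of all rows and miR827 close to it. The median log2 difference of all 127 rows in total small RNA was -0.44 in atprmt5-2 and -0.69 in atprmt5-6, with calls of 4 rows as higher and 19 as lower in the first allele, and of 5 and 21 in the second. From the top, miR399a ranked 35th and 24th of 127, miR399b/c-3p 42nd and 43rd, and miR827 64th and 61st. When every library was centred on its median miRNA instead, 15 rows were called higher and 4 lower for atprmt5-2, and 19 and 2 for atprmt5-6. On that scale miR399a was at 0.67 (adjusted p = 0.111) and 0.87 (adjusted p = 0.0504), and its mean over both alleles, 0.77, passed the test (limma adjusted p = 0.0378). miR399b/c-3p then stood at 0.41 and 0.49 and miR827 at 0.14 and 0.17, above and not below wild type, with no call.

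For miR827 the wild-type libraries set the value. Without wild-type total replicate 1 (203 RPM, the shallowest library), its log2 difference was 0.19 in atprmt5-2, 0.01 in atprmt5-6 and 0.10 for the mean of both alleles. Without wild-type total replicate 2 (84.2 RPM) it was -1.07, -1.25 and -1.16, and the last 2 passed limma's test (adjusted p = 0.0463 and 0.0364). Each of these fits rests on 1 wild-type total library that is assumed to vary like the other groups. No direction for miR827 can be read from 2 wild-type libraries that differ by more than the mutants do.

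Within AGO1-IP the guides of the mutants were at their wild-type level within error. In atprmt5-2 the log2 differences from wild type were -0.01 ± 0.27 for miR399a, 0.08 ± 0.25 for miR399b/c-3p and 0.05 ± 0.41 for miR827. In atprmt5-6 they were 0.19 ± 0.27, 0.17 ± 0.25 and -0.20 ± 0.41, and for the mean of both alleles 0.09 ± 0.23, 0.13 ± 0.21 and -0.08 ± 0.36 (SE). Of the 3 sequences 0 were called in any of the 3 comparisons by limma, edgeR or DESeq2 (limma adjusted p = 0.874 to 0.970), and 0 had an unadjusted p under 0.05. Limma called 3.94% of all tested rows in atprmt5-2, 0.787% in atprmt5-6 and 6.30% for the mean of both alleles. The intervals for miR399b/c-3p, -0.47 to 0.63 in atprmt5-2 and -0.38 to 0.72 in atprmt5-6, leave room for a fold change of 0.722 to 1.55 and of 0.768 to 1.65. Between the alleles the differences (atprmt5-2 minus atprmt5-6) were -0.20, -0.09 and 0.25, with limma, edgeR and DESeq2 calling 0% of all tested rows and 1 row at an unadjusted p under 0.05 by limma.

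**Figure D3:**
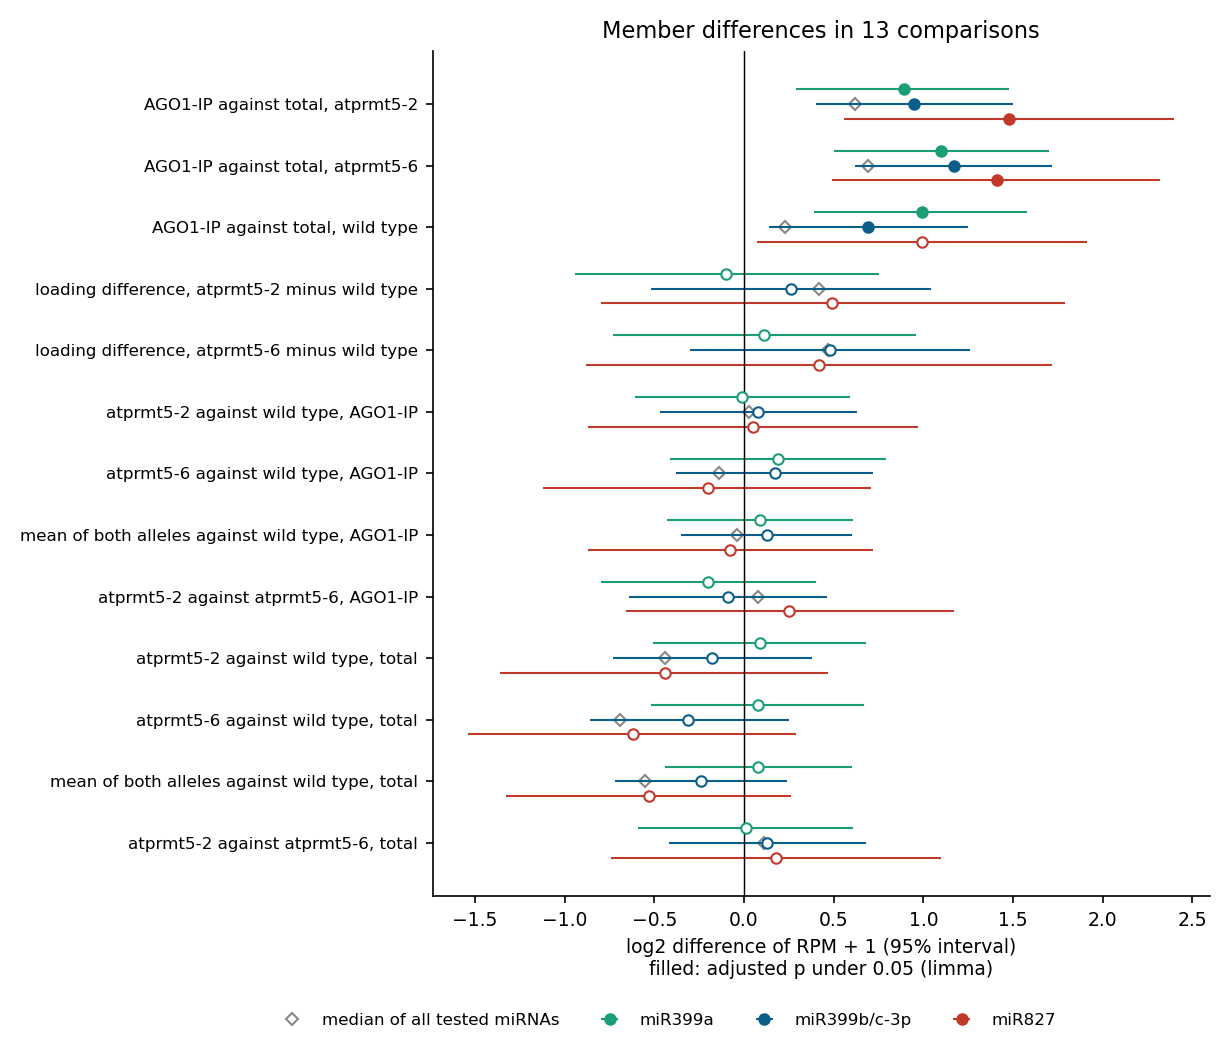
Log2 differences of RPM + 1 with 95% intervals (limma) for miR399a, miR399b/c-3p and miR827 in the 13 comparisons; filled points have an adjusted p under 0.05 and open diamonds mark the median of all 127 tested rows. Filled points occur in the 3 comparisons of AGO1-IP with total (3, 3 and 2 of 3 sequences), and every interval between genotypes includes 0.

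Loading was compared as AGO1-IP against total within each genotype, and here 8 of 9 values were called as higher in AGO1-IP per 21 nt read (RPM). In atprmt5-2, miR399a was 1.85-fold (95% interval 1.22 to 2.80), miR399b/c-3p 1.93-fold (1.32 to 2.83) and miR827 2.79-fold (1.48 to 5.27) higher, on the RPM + 1 scale, with limma adjusted p of 0.0152, 0.0075 and 0.0101. In atprmt5-6 the folds were 2.14 (1.42 to 3.24), 2.25 (1.54 to 3.30) and 2.65 (1.40 to 5.01), with adjusted p of 0.00548, 0.00226 and 0.0146. In wild type, miR399a was 1.98-fold (1.31 to 3.00; adjusted p = 0.0119) and miR399b/c-3p 1.62-fold higher (1.10 to 2.37; adjusted p = 0.0458), and miR827 was at 1.98-fold (1.05 to 3.75) without passing the test (adjusted p = 0.0838). Limma thus called 3, 3 and 2 of the 3 sequences as higher in AGO1-IP, beside 36.2%, 40.2% and 20.5% of all tested rows in atprmt5-2, atprmt5-6 and wild type. Those rows are names, some of which share a sequence, whereas the members were counted as sequences. The medians of all rows were 0.62, 0.69 and 0.23 (log2), and the members' values were 0.89, 0.95 and 1.48 in atprmt5-2, 1.10, 1.17 and 1.41 in atprmt5-6, and 0.99, 0.69 and 0.99 in wild type.

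**Figure D4:**
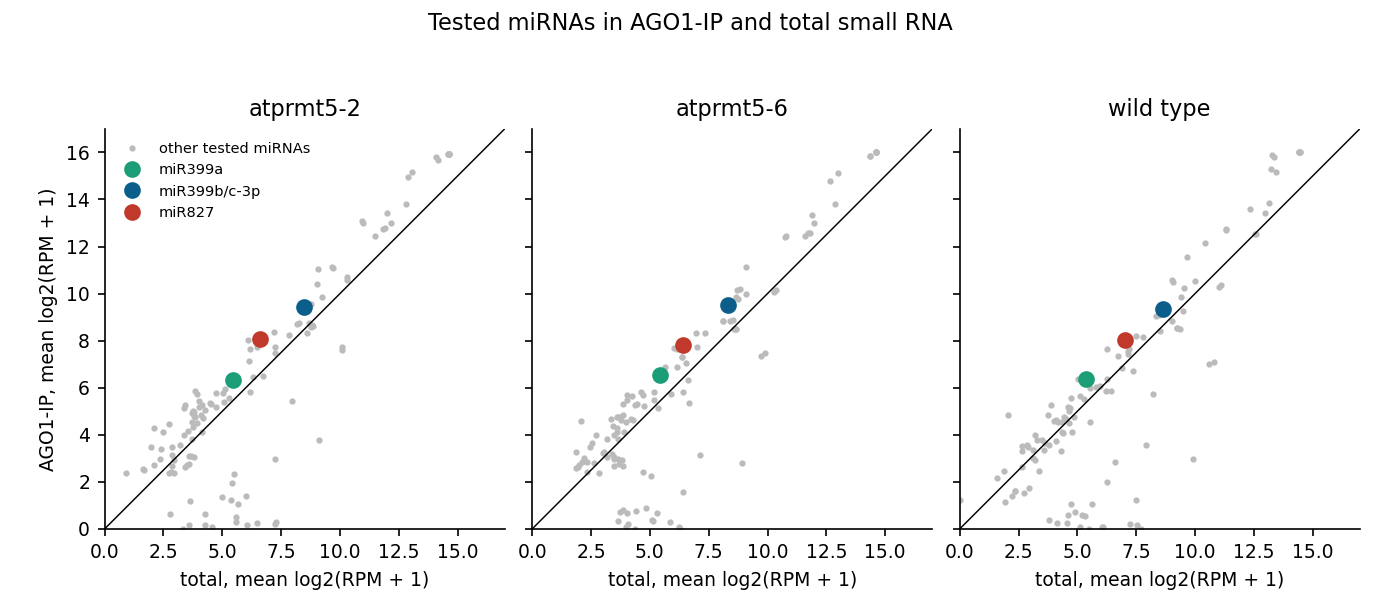
Mean log2(RPM + 1) of 2 libraries in AGO1-IP (vertical) against total small RNA (horizontal) for the 127 tested rows in each genotype, with the line of equal values. The members lie above the line among the other miRNAs of similar abundance, by 0.89 to 1.48 in atprmt5-2, 1.10 to 1.41 in atprmt5-6 and 0.69 to 0.99 in wild type.

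This enrichment depended on what the reads were counted against; miRNAs took up more of an AGO1-IP library than of a total library. Scaled to miRNA reads instead of all 21 nt reads, the differences of miR399a turned to -0.47, -0.29 and -0.52 (log2; atprmt5-2, atprmt5-6 and wild type), and those of miR399b/c-3p to -0.42, -0.24 and -0.83, of which the last passed the test as lower in AGO1-IP (limma adjusted p = 0.0301). miR827 was then at 0.12, 0.003 and -0.53. With TMM or DESeq2 size factors, which set the bulk of miRNAs equal, all 9 values were positive, between 0.02 and 0.69, and 0 were called. The calls over all rows moved in the same way, when scaled to miRNA reads to 3 higher with 46 lower (atprmt5-2), 3 with 51 (atprmt5-6) and 4 with 84 (wild type), against 46 with 24, 51 with 25 and 26 with 26 per 21 nt read. Centred on the median miRNA, all 9 values were called as higher, at 0.99, 1.05 and 1.58 in atprmt5-2, 1.11, 1.18 and 1.42 in atprmt5-6, and 1.65, 1.36 and 1.65 in wild type (miR399a, miR399b/c-3p and miR827). The medians of all tested rows were also raised on that scale, at 0.72 in atprmt5-2, 0.70 in atprmt5-6 and 0.89 in wild type. In wild type, edgeR with the authors' denominators called miR399a (adjusted p = 0.0174) but neither miR399b/c-3p (0.0601) nor miR827 (0.115). With 22 nt reads added limma called miR827 (1.52, adjusted p = 0.00924). No member was listed at 22 nt, so for the members this setting changed the denominators only.

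**Figure D5:**
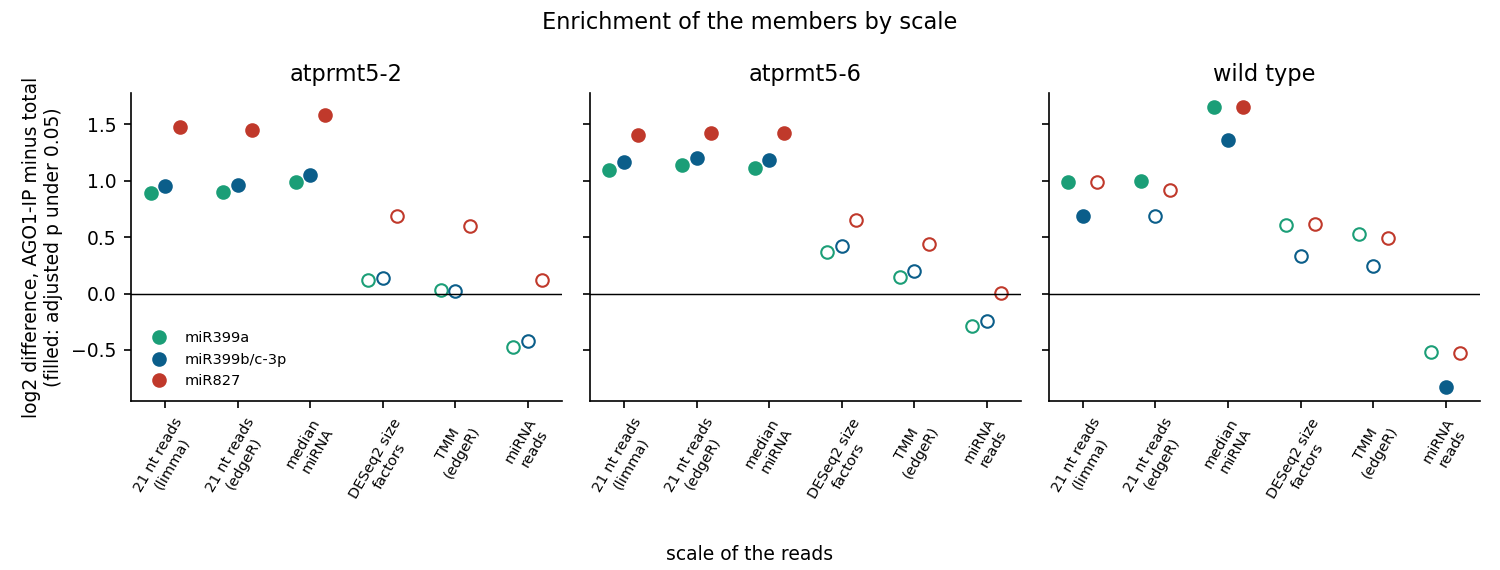
Log2 difference of AGO1-IP from total for the 3 tested sequences in each genotype under 6 scales: 21 nt reads with limma or edgeR, the median miRNA, DESeq2 size factors, TMM and all miRNA reads; filled points have an adjusted p under 0.05. The values fall from 0.69 to 1.48 per 21 nt read (limma) to between -0.83 and 0.12 per miRNA read.

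Leaving out 1 library at a time kept every value positive, but some calls were lost. Without atprmt5-2 total replicate 2, miR399b/c-3p alone was still called in atprmt5-2 (miR399a then at 0.79 and miR827 at 1.17), and without atprmt5-6 AGO1-IP replicate 3 it alone was still called in atprmt5-6 (miR399a at 0.82 and miR827 at 1.35). In wild type the call of miR399b/c-3p was lost without any 1 of the 4 libraries (limma adjusted p = 0.0645 to 0.178), while its value stayed between 0.61 and 0.77. The wild-type value of miR827 ran from 0.36 without total replicate 2 to 1.62 without total replicate 1, and among these fits miR827 was called only without total replicate 1 (adjusted p = 0.00716). Without wild-type AGO1-IP replicate 1 or replicate 3, 0 sequences were called.

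The difference in loading between a mutant and wild type was tested directly. For atprmt5-2 it was -0.10 ± 0.38 for miR399a, 0.26 ± 0.35 for miR399b/c-3p and 0.49 ± 0.58 for miR827, and for atprmt5-6 it was 0.11 ± 0.38, 0.48 ± 0.35 and 0.42 ± 0.58 (log2 ± SE). Limma, edgeR and DESeq2 called 0 of the 3 sequences in either allele, and 0 had an unadjusted p under 0.05 (limma adjusted p = 0.707 to 0.900 and 0.544 to 0.878). Over all tested rows limma called 0% in atprmt5-2, where 18 rows had an unadjusted p under 0.05, and 0.787% in atprmt5-6. The medians of all rows were 0.42 and 0.47. In the main fit, which did not pair libraries, miR827 was called as higher in AGO1-IP in both mutants and not in wild type. This difference between genotypes did not itself pass the test. With AGO1-IP and total libraries paired by file number, wild-type miR827 was called and wild-type miR399b/c-3p was not (limma adjusted p = 0.00993 and 0.0555). No label states that pairing.

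Other phosphate-responsive miRNAs were too rare to test. miR778, which responds to low phosphate and targets a histone methyltransferase transcript, had 40 reads over the AGO1-IP libraries and 3 over the total libraries. The 4 miR2111 strands had 2 to 17 reads each in AGO1-IP and 0 or 1 in total, and miR399c-5p, the passenger strand of MIR399c, had 1 read in all, in a total library of atprmt5-6. Of these 6 names 0 passed the filter.

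Guides of other nutrients, which act in sulfate and copper supply (miR395, miR397, miR398, miR408 and miR857), gave 10 tested rows of 13 names. In total small RNA 0 of 10 were called in either allele, beside 18.1% and 20.5% of all tested rows. For the mean of both alleles 1 was higher, miR395f (log2 1.60 ± 0.50, limma adjusted p = 0.0367), and 0 lower, beside 29.9% of all tested rows. The other miR395 rows ran from -0.18 (miR395d) to 1.29 (miR395c) without a call. miR395a, a guide of sulfate assimilation and transport genes, was at 1.20 ± 0.48 (adjusted p = 0.076). The list's median was 0.27, that of all rows -0.55, and the values of the phosphate guides were 0.08, -0.24 and -0.53. In AGO1-IP 0 of 10 were called between mutants and wild type, beside 3.94%, 0.787% and 6.30% of all tested rows (atprmt5-2, atprmt5-6 and their mean). The list's medians were 0.84, 1.10 and 0.97, and those of all rows 0.03, -0.14 and -0.04. For the mean of both alleles the miR395 rows ran from 0.92 (miR395e) to 1.61 (miR395f). The other rows of the list ran from -0.69 (miR408-3p) to 0.11 (miR398c-3p). Between AGO1-IP and total, 0 of 10 were called in either mutant and 1 was lower in wild type, miR395d (log2 -1.21, limma adjusted p = 0.0196). In wild type the other miR395 rows lay between -1.20 (miR395b) and -0.70 (miR395e) without a call. Of all 127 tested rows, 24, 25 and 26 were called as lower in AGO1-IP (atprmt5-2, atprmt5-6 and wild type). In the same order, 36.2%, 40.2% and 20.5% were called as higher. No difference between these guides and the phosphate guides was tested. Several of these miR395 names share one mature sequence and are not independent, so a call of 1 name does not stand for its sequence.

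As markers of another source of small RNA in closed buds, the pollen-associated miR845a and miR845b were followed. miR845a was lower than in wild type in total small RNA of both mutants (log2 -0.99 in atprmt5-2 and -1.09 in atprmt5-6, limma adjusted p = 0.0253 and 0.0134), and miR845b was at -0.51 and -0.76 without passing the test. Of all tested rows limma called 18.1% and 20.5% there, with medians of -0.44 and -0.69 (atprmt5-2 and atprmt5-6). In AGO1-IP neither was called, with log2 differences of -0.81 and -0.54 for miR845a and -0.61 and -0.72 for miR845b. Whether the share of pollen changed, and its part in the values of the phosphate guides, was not tested. In whole buds fewer cells of a type cannot be told apart from less RNA per cell.

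Among the other 124 tested rows, those with the pattern most like each member over the 12 libraries were found by the root mean square difference of mean-subtracted log2(RPM + 1). For miR399b/c-3p they were miR159a (0.13), miR447a.2-3p (0.24) and miR167b (0.26), and for miR399a miR159a (0.22), miR447a.2-3p (0.26) and miR166f (0.28). For miR827 they were miR403-3p (0.27), miR160a-5p (0.28) and miR396a-5p (0.31). The median over all 124 rows was 0.65 for miR399a, 0.64 for miR399b/c-3p and 0.74 for miR827. The miR399 sequences were 0.17 apart from each other, and miR827 was 0.43 from miR399a and 0.40 from miR399b/c-3p, farther than its 3 nearest rows. The libraries share depth and miRNA content, so these are descriptions of likeness only.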

How the data were processed

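The data were 48 deposited tables, 1 for each of the read lengths 21, 22, 23 and 24 nt in each of 12 libraries (2 per genotype and fraction), holding RPM values that the authors computed for 428 annotated miRNAs. The genome build TAIR10 and the tools Bowtie2, Trimmomatic 0.36 and SAMtools 1.9 are named in the submitters' processing notes, without their roles, mismatch settings or strand handling. Of the deposited RPM values for 21 nt, 100% were whole multiples of 1 read within a tolerance of 0.01 reads, which gave reads and the authors' denominators. Missing values were taken as 0. Members were listed in none of the other tables but the 23 nt table of wild-type total replicate 1, which repeats the 21 nt read numbers of all 195 listed miRNAs and was not used.

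Differences were tested with limma 3.58.1 (R 4.3.3) on log2(RPM + 1) for the 127 rows with a mean of at least 5 RPM, in 1 fit of 6 groups with 6 residual degrees of freedom and an intensity trend, with Benjamini-Hochberg adjustment over all rows and a threshold of 0.05. Fold changes on this scale understate low miRNAs. The p-values of limma set a difference against the spread between libraries. That spread was estimated over all 6 groups together and moderated by the intensity trend, so it is not that of a single group. Alternatives were edgeR 4.0.16 and DESeq2 1.42.0 on the recovered reads, and other scalings, filters, pseudocounts, blocks and left-out libraries. The 95% Poisson and binomial intervals and the floor of 3 reads cover counting error only. The 95% intervals of log2 differences and folds come from the limma fit and its spread between libraries.

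All 7 members matched a RefSeq TAIR10.1 mature sequence by name. The files hold no coordinates. Named miRNAs were the members, the 3 nearest patterns of each, and short lists of other phosphate guides, other nutrient guides, miRNAs that check the AGO1-IP and pollen-associated miRNAs. The members and lists were chosen with earlier results of these data known.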

Additional observations from a re-analysis of the deposited data

How the results depend on the processing

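Of 766 member values recomputed under other settings, 648 kept their direction and side of the threshold, 36 lost their call, 8 gained one and 74 changed sign. All but 1 of the sign changes were without a call before or after, or lost their call; the exception, miR399b/c-3p in wild-type AGO1-IP against total, is the value of -0.83 when scaled to miRNA reads. Scaling to miRNA reads also gave -0.47, -0.29 and -0.52 for miR399a (atprmt5-2, atprmt5-6 and wild type), -0.42 and -0.24 for miR399b/c-3p in the mutants, and -0.53 for miR827 in wild type. On that scale miR399a was -0.00089 between the alleles in total, 0.06 in atprmt5-2 AGO1-IP and 0.05 in the atprmt5-2 loading difference. Members called in AGO1-IP against total then numbered 0, 0 and 1 (atprmt5-2, atprmt5-6 and wild type), 0 in each genotype with TMM and with DESeq2, 1 in atprmt5-2 and 1 in wild type with the compared genotype fitted alone, and 1 in wild type by edgeR with the authors' denominators. Centred on the median miRNA, 1 sequence was called for the mean of both alleles in total. Centring gave in total, against wild type, 0.41, 0.49 and 0.45 for miR399b/c-3p and 0.14, 0.17 and 0.15 for miR827 (atprmt5-2, atprmt5-6 and their mean), and between the alleles -0.20, -0.08 and -0.03 for miR399a, miR399b/c-3p and miR827. In AGO1-IP it gave 0.01 for miR399a in atprmt5-2 and 0.0023 for miR827 in the mean. Its loading differences were -0.31 and -0.17 for miR399b/c-3p, -0.07 and -0.23 for miR827 (atprmt5-2 and atprmt5-6) and -0.54 for miR399a in atprmt5-6. TMM gave 0.40, 0.34 and 0.37 for miR399b/c-3p in total, 0.01 for miR827 in atprmt5-2 total, -0.09 for miR399a between the alleles in total, 0.11 for miR399a in atprmt5-2 AGO1-IP, 0.01 for miR827 in the AGO1-IP mean, and loading differences of -0.22 and -0.04 for miR399b/c-3p, -0.38 for miR399a and -0.05 for miR827 in atprmt5-6. DESeq2 gave for the same values 0.36, 0.24 and 0.30, then 0.04, -0.02, 0.09 and 0.01, and loading differences of -0.18 for miR399b/c-3p in atprmt5-2 and -0.24 for miR399a in atprmt5-6. Adding 22 nt reads, which changed only the denominators of the members, gave 0.10 for miR399a in atprmt5-2 AGO1-IP and 0.04 for miR827 in the AGO1-IP mean. The causes of these shifts beyond the changed denominator were not tested. Leaving out 1 library at a time, members called ranged from 1 to 3 in atprmt5-2 and atprmt5-6 and from 0 to 2 in wild type (AGO1-IP against total), and from 0 to 1 in total for atprmt5-6 and for the mean of both alleles against wild type. The log2 differences ranged in total from -0.01 to 0.19 (atprmt5-2) and -0.05 to 0.20 (atprmt5-6) for miR399a, and from -1.07 to 0.19, -1.25 to 0.01 and -1.16 to 0.10 (mean) for miR827. Between the alleles in total they ranged from -0.12 to 0.14 for miR399a and -0.13 to 0.49 for miR827. In AGO1-IP they ranged from -0.10 to 0.08, -0.09 to 0.47 and -0.05 to 0.23 for miR399a, from -0.07 to 0.23, -0.10 to 0.44 and -0.01 to 0.26 for miR399b/c-3p, and from -0.30 to 0.40, -0.56 to 0.15 and -0.43 to 0.27 for miR827 (atprmt5-2, atprmt5-6 and mean against wild type), and between the alleles from -0.48 to 0.08 for miR399a and -0.36 to 0.18 for miR399b/c-3p. Loading differences ranged from -0.20 to 0.0014 and -0.17 to 0.39 for miR399a and from -0.14 to 1.12 and -0.21 to 1.05 for miR827. Replicate numbers in the labels are 1 and 2 for total and 1 and 3 for AGO1-IP, and no label says that a number marks shared material. A replicate block within each fraction changed the calls over all rows to 5 higher and 28 lower in atprmt5-2 total and to 9 and 58 in atprmt5-6 total, left 0 members called there, and added a call of miR827 in wild-type AGO1-IP against total (0.99, adjusted p = 0.0274). A replicate block that paired AGO1-IP and total libraries by the numbers in the file names called miR827 (adjusted p = 0.00993) and not miR399b/c-3p (adjusted p = 0.0555) there. The correlation of replicate deviations between genotypes was 0.641, 0.226 and 0.352 in AGO1-IP and 0.633, -0.105 and -0.0721 in total (atprmt5-2 with atprmt5-6, atprmt5-2 with wild type and atprmt5-6 with wild type), and between AGO1-IP and total by file number it was 0.482, 0.775 and 0.141 (atprmt5-2, atprmt5-6 and wild type). With 2 numbers per group these are a hint from the data only. The total extracts were a fraction of the input of the immunoprecipitations, but no label says which libraries belong together. In total a crossed block, chosen after seeing the data, gave 7 higher and 25 lower in atprmt5-2 against wild type, with 0 members called. Depth limits miR399d, miR399e and miR399f, which were below the filter, and miR399a in total, with 23 to 65 reads per library.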
